A study of Homo sapiens with 6 samples.

Results

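MicroRNA genes were read out as hairpins: the short stretches of the genome that fold back on themselves in the transcript and give a microRNA. All genes of the RefSeq table (build GRCh38.p14, the assembly called hg38) named MIR or MIRLET followed by digits and lying on chromosomes 1 to 22 were taken, without the longer host genes that carry them. This gave 1793 hairpins among 59788 RefSeq genes with a position. Of these, 1148 lay inside a protein-coding gene and 645 did not. Among the 645, 253 lay in a long noncoding RNA (lncRNA) gene and 392 in neither kind of gene. A hairpin was called open in a library when a deposited peak overlapped it or the 1 kb on either side. An open hairpin here therefore means accessible chromatin within 1 kb of it, not that the microRNA was made.

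The chromatin came from nuclei of Jurkat cells, an established human leukaemia line of T-cell origin, 50000 cells a library. The question was whether open chromatin differs under simulated microgravity. There were 3 libraries at normal gravity, NG 1 to NG 3, and 3 under simulated microgravity, SMG 1 to SMG 3, for which isolated nuclei and not intact cells turned for 30 min at 30 degrees per second in a random positional machine. All 6 were tagged with transposase for 30 min at 37 °C. Whether the nuclei turned before or during this tagging is not clear from the labels.

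The 6 peak lists held 37782 to 43713 peaks, which merged into 69562 regions, and NG 1 held the fewest. The peak names of SMG 3 alone include the word "normalized", whose meaning no label explains. No read depth is given. Of 10 T-cell genes, 9 had a peak within 1 kb of a gene end in all 6 libraries, beside 47.1% of 19122 protein-coding genes, and TRAC, the constant segment of the T-cell receptor alpha chain, had none. Of the B-cell, myeloid, epithelial and muscle markers (10 genes), none had such a peak. Of 2 liver markers, APOA1 had one in all 6 libraries and ALB in none. Since no label states that replicate libraries derive from separate cultures, p-values here reflect library-to-library spread alone, and that spread may be technical.

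A microRNA gene is transcribed as a long primary transcript, either from its own promoter or as a passenger of a host gene. DROSHA with its partner DGCR8 cuts the hairpin out in the nucleus, exportin 5 (XPO5) carries it to the cytoplasm and DICER1 trims it to a duplex. An Argonaute protein keeps 1 strand, whose seed, bases 2 to 8 from the 5′ end, pairs with target messenger RNAs and lowers their stability and translation. In T cells, miR-142 is a marker of blood cells, miR-155 rises on activation, miR-181a tunes the sensitivity of the T-cell receptor during development, and the miR-17-92 cluster drives lymphocyte growth.

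The mature sequences that the results below turn on are shown 5′ to 3′ as RefSeq (GRCh38.p14) gives them, with the seed in capitals. They are grouped so that microRNAs sharing a seed stand together, because the counts below are given by seed.

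miR-17-5p (MIR17): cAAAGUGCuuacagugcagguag
miR-20a-5p (MIR20A): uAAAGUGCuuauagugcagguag
miR-93-5p (MIR93): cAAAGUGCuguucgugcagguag
miR-106b-5p (MIR106B): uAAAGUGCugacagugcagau
miR-92a-3p (MIR92A1): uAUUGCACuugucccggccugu
miR-25-3p (MIR25): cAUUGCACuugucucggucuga
miR-92b-3p (MIR92B): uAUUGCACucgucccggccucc
let-7i-5p (MIRLET7I): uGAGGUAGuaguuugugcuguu
let-7a-5p (MIRLET7A1): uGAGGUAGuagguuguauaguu
let-7g-5p (MIRLET7G): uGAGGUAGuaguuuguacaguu
miR-181a-5p (MIR181A1): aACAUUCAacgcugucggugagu
miR-142-3p (MIR142): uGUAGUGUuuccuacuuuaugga
miR-142-5p (MIR142): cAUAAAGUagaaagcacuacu
miR-155-5p (MIR155): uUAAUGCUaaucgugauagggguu
miR-26a-5p (MIR26A1): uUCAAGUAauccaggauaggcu
miR-9-5p (MIR9-1): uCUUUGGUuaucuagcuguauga
miR-191-5p (MIR191): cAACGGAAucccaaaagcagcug
miR-423-5p (MIR423): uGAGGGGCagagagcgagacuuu
miR-4751 (MIR4751): aGAGGACCcguagcugcuagaagg

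The first 4 share the seed AAAGUGC, the next 3 AUUGCAC and the following 3, of the let-7 family, GAGGUAG. Over all matched hairpins, the 6 with the seed AAAGUGC had no peak in any library. Of the 5 with AUUGCAC, MIR92B was open in all 6 libraries, and MIR25, MIR32, MIR92A1 and MIR367 in none. Of the 12 with GAGGUAG, MIRLET7I was open in all 6 libraries and 11 in none. The seed of miR-181a, ACAUUCA, was carried by 7 hairpins, 5 open in none and 2 (MIR181A2 and MIR181B2) in 2 libraries. In the last 3 of these families, hairpins with 1 seed differed in openness. Over all hairpins 9.54% were open in all 6 libraries and 83.5% in none, so such a mixture is not shown to be particular to these seeds. Mature sequences were matched for 1619 of the 1793 hairpins and hairpin sequences for 1461.

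Between 11.5 and 13.4% of hairpins were open in a library, and the number open did not separate the gravity groups. NG 1, NG 2 and NG 3 had 206, 241 and 229 open hairpins, and SMG 1, SMG 2 and SMG 3 had 225, 238 and 209. The ranges of the groups overlapped. The means were 225 ± 17.8 and 224 ± 14.5 (SD, n = 3 each), a difference of −1.33 hairpins (exact permutation test, two-sided, p = 0.9; the smallest p this design allows is 0.1). As a share of hairpins, the mean over the 6 libraries was 12.5%. The same exact permutation test gave p = 0.9 for hairpins inside protein-coding genes (11.3 ± 1.32% and 11.4 ± 0.525%) and p = 0.7 for the others (14.9 ± 0.676% and 14.4 ± 1.32%).

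The same hairpins made up most of this openness. In all 6 libraries, 171 hairpins (9.54%) were open, against 2.02% of 1381686 bins of the same length (2080 bp) tiled over the same chromosomes. In no library were 1497 open, and 125 were open in 1 to 5. Of the 296 hairpins open at all, 57.8% were open in all 6, beside 35.8% of the bins with a peak and 34.6% of the merged regions. Peaks were ranked within their own library by −log10 q-value and given as percentiles, 100 being the strongest. The hairpins open in all 6 had a median mean percentile of 80.1 and those open in 1 library 15.2. The hairpin sequence itself had a median GC content of 63.4% in the 141 matched hairpins open in all 6 and 50.8% in the 1222 open in none. The part of base composition in openness was not tested.

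**Figure D1:**
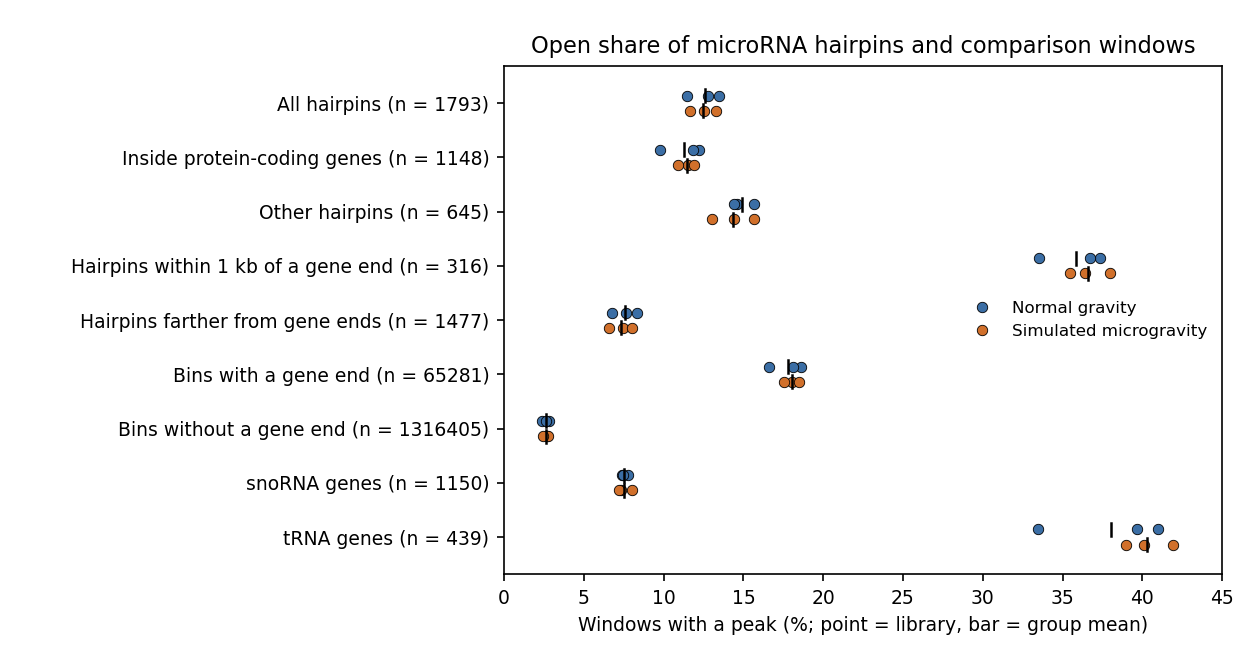
Share of windows with a peak (x axis, %) for microRNA hairpins, subsets of them and comparison windows (y axis, with the number of windows); each point is a library, coloured by group, and each bar is a group mean. The groups overlap in each set shown, and hairpins within 1 kb of a gene end (33.5 to 38.0%) lie far to the right of those farther away (6.57 to 8.33%).

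Hairpins inside protein-coding genes were open less often than the others. The share was 9.76, 12.2, 11.8, 11.5, 11.9 and 10.9% inside, against 14.6, 15.7, 14.4, 14.4, 15.7 and 13.0% for the others, in NG 1 to NG 3 and then SMG 1 to SMG 3. In each library the share inside was the lower. The mean difference was −3.27 percentage points (range −4.82 to −2.13, 6 of 6 libraries below 0, exact sign-flip permutation test over the libraries, two-sided, p = 0.03125, which is the smallest it can give; Benjamini-Hochberg adjusted over 9 such comparisons, 0.0352). With windows of 2 kb the difference was −1.98 points, in the same direction. The test treats libraries as replicates and the hairpins as fixed, so it says nothing about another set of genes. Hairpins within 2 kb of each other also share windows: the 1793 fell into 1593 loci, of which 128 held several hairpins.

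The distance to the end of a gene separated the hairpins more than the class did. Within 1 kb of an end of a protein-coding or lncRNA gene, 36.2% of 316 hairpins were open (mean of the 6 libraries). At 1 to 2 kb it was 20.3% of 169, at 2 to 5 kb 8.10% of 319, at 5 to 10 kb 6.36% of 262, at 10 to 50 kb 4.36% of 516 and beyond 5.13% of 211. Within 1 kb of these protein-coding or lncRNA ends the classes were close, at 35.8% inside (n = 181) and 36.8% for the others (n = 135). The difference was −0.971 points, with 3 of 6 libraries on each side (exact sign-flip permutation test, p = 0.5625, adjusted 0.5625). Its range over the libraries was −6.10 to 1.10 points, so a difference of a few points was not detectable. Over 1 kb from both protein-coding and lncRNA gene ends, 6.77% of 967 inside and 8.76% of 510 others were open. The difference was −1.98 points, in the same direction in 6 of 6 libraries (exact sign-flip permutation test, p = 0.03125, adjusted 0.0352).

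**Figure D2:**
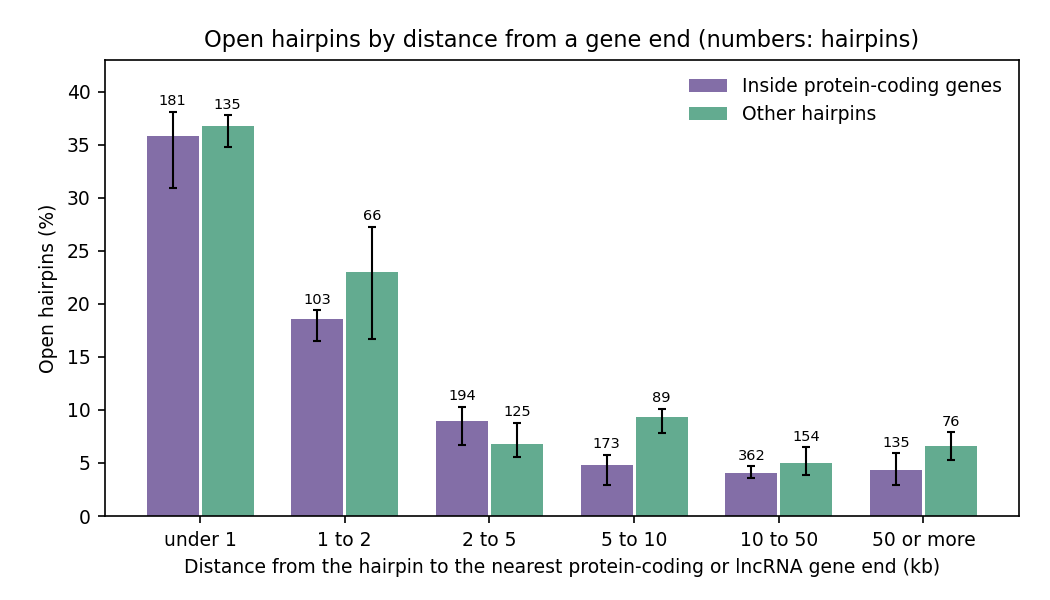
Mean share of open hairpins over the 6 libraries (y axis, %) by distance to the nearest protein-coding or lncRNA gene end (x axis, kb), for hairpins inside protein-coding genes and others; error bars are the range over the libraries and numbers count hairpins. The share is highest under 1 kb (35.8 and 36.8%) and below 10% in each bar from 2 kb on.

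Hairpins were open more often than bins of the genome both near gene ends and away from them. Hairpins within 1 kb of a gene end were open more often than bins holding a gene end (36.2 against 17.9%, 18.3 points higher, 6 of 6 libraries). Those farther away were open more often than bins without one (7.46 against 2.63%, 4.83 points higher, 6 of 6). Each of these differences had p = 0.03125 (exact sign-flip permutation test, adjusted 0.0352). Among other short noncoding genes in windows built in the same way, 39.2% of 439 tRNA genes and 7.52% of 1150 snoRNA genes were open, so the hairpins (12.5%) lay between them (each p = 0.03125, exact sign-flip permutation test, adjusted 0.0352).

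The open chromatin lay mostly upstream of the hairpins. At the hairpin centre 3.36% of 1067 stranded hairpins inside protein-coding genes and 6.07% of 590 others were covered by a peak, as means over the libraries. At 200 bp upstream it was 4.22 and 6.81%, and at 200 bp downstream 2.83 and 3.14%. Of the 171 hairpins open in all 6 libraries, 62 were themselves covered by a peak in all 6, 30 in some and 79 in none. Their peak summits lay a median of 549.5 bp from the hairpin centre, upstream for 117 and downstream for 42 of the 159 with a known strand. Hairpins open in no library lay a median of 20304 bp from the nearest peak.

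**Figure D3:**
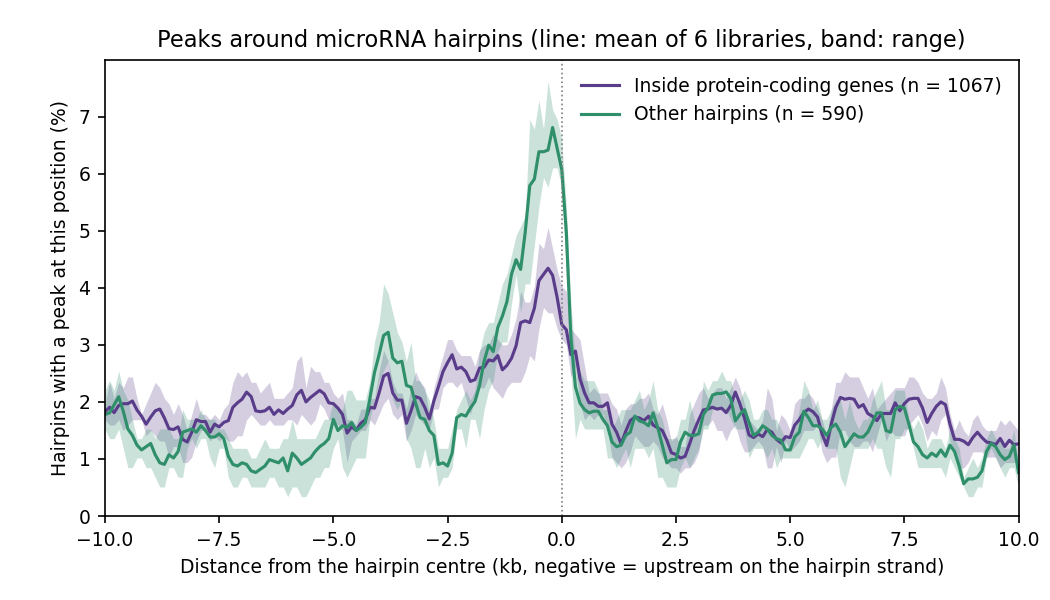
Share of hairpins covered by a peak (y axis, %) at each distance from the hairpin centre (x axis, kb, negative upstream on the hairpin strand), for hairpins inside protein-coding genes and others; lines are means of 6 libraries and bands their range. Both lines rise on the upstream side, to 4.34% at 300 bp inside protein-coding genes and 6.81% at 200 bp for the others. Past the centre the line for the others falls steeply and that for hairpins inside protein-coding genes more gently.

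Of the 12 strongest loci, 10 lay within 2 kb of a gene end, a share near that of the whole set (126 of 171, 73.7%). Among the hairpins open in all 6 libraries, MIR933 (chr2:175167633-175167709), inside ATF2, which encodes a stress-responsive transcription factor, had the highest mean percentile, 99.6. MIR638 in DNM2, a GTPase gene of endocytosis, followed at 99.1, and MIR4453 (chr4:152536428-152536516) at 99.1. MIR4453 was covered by the peak in all 6 libraries, at percentiles of 99.3, 98.7 and 99.0 in NG 1 to NG 3 and 98.8, 99.3 and 99.1 in SMG 1 to SMG 3. MIR4449 in the lncRNA gene DANCR stood at 98.7, MIR3124 at 98.3, MIR639 at 98.1, MIR4482 at 98.1, MIR4781 in TCEANC2 at 98.0, MIR4444-1 at 97.1 and MIR4434 in AFTPH at 96.7. These 10 lay 0 to 1817 bp from the end.

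The other 2 lay farther out. MIR4437 (chr2:181305593-181305652) lay in LINC01934, 93901 bp from the nearest gene end, and the peak covered the hairpin in all 6 libraries at a mean percentile of 98.9. MIR12136 (chr1:632615-632685) had a mean percentile of 99.0, with 94.8 in SMG 3 and 99.8 to 99.9 in the other libraries, and lay 3605 bp from a gene end. It lies in a stretch of chromosome 1 that resembles mitochondrial DNA, and reads of near-identical copies cannot be told apart, so its peak is uncertain. In all, 101 of the 171 lay within 1 kb of a gene end and 20 lay over 10 kb away. The median percentile was 80.9 for the 126 within 2 kb of a gene end and 78.1 for the 45 farther away.

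Host genes carried many hairpins whose own window was closed. For 955 hairpins RefSeq lists a start of a host gene on the same strand. A peak lay within 1 kb of a listed host start in all 6 libraries for 506 of them (53.0%). The background is 50.3% of 15100 protein-coding genes and 18.3% of 11145 lncRNA genes with a listed start. Where the hairpin was open in all 6, the host start was open in all 6 for 74 of 81 (91.4%). Where the hairpin was open in none, it was still open for 404 of 810 (49.9%). The share of 91.4% partly repeats the hairpin's own window, since the nearest upstream host start lay a median of 913 bp away there, against 21679 bp for hairpins open in none. Host starts were open in all 6 for 57.6% of 811 hairpins inside protein-coding genes and 27.1% of 144 others.

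With windows of 1 kb, the growth-promoting clusters had closed hairpins and open host starts throughout. MIR17, MIR18A, MIR19A, MIR20A, MIR19B1 and MIR92A1 (the miR-17-92 cluster, chr13) and MIR106B, MIR93 and MIR25 (inside MCM7, a DNA helicase subunit gene, chr7) had no peak within 1 kb in any library. Yet the start of the host, MIR17HG or MCM7, was open in all 6 libraries for each of the 9. The 9 share these host genes, so they are not separate cases. Over all hairpins, 83.5% had no peak in any library. Of those with a listed host start, 53.0% had it open in all 6. MIR17 (chr13:91350605-91350688) lay 2959 bp downstream of the MIR17HG start and 1142.5 bp (median of the libraries) from the nearest peak. For MIR92A1, the farthest of its cluster from a peak, that median was 1851.5 bp. The miR-17-92 hairpins thus lay outside 1 kb but within 2 kb, and their call of closed depends on the window. MIR25, MIR93 and MIR106B lay 3242, 3450 and 3675 bp from the nearest peak. The peak at the MIR17HG start stood at percentiles of 62.4, 70.7 and 65.5 in NG 1 to NG 3 and 68.0, 74.4 and 67.0 in SMG 1 to SMG 3, and these ranges overlapped.

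The start regions of 4 host genes are printed below, because their openness and that of their hairpins part ways in 1 kb windows. Each runs from 250 bases before to 50 after the start, transcribed strand 5′ to 3′ (RefSeq, GRCh38.p14). Capitals mark GC boxes, GGGCGG or its reverse complement CCGCCC, a promoter element of many broadly used genes. They lie at chr13:91347437-91347736 (+) for MIR17HG, chr21:25561895-25562194 (+) for MIR155HG, chr17:58332471-58332770 (-) for MIR142HG and chr1:198937380-198937679 (-) for MIR181A1HG.

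MIR17HG: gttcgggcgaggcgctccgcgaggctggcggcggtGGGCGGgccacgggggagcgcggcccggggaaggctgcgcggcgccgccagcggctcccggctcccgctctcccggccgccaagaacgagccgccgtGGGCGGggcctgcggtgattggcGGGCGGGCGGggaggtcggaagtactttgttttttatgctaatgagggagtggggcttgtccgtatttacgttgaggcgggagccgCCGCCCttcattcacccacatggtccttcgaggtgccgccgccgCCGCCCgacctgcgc
MIR155HG: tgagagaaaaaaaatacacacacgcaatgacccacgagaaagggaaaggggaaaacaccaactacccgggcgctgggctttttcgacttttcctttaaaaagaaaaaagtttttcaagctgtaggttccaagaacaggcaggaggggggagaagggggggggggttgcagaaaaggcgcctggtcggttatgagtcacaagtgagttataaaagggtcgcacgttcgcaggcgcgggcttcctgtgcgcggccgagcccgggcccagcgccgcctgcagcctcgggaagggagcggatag
MIR142HG: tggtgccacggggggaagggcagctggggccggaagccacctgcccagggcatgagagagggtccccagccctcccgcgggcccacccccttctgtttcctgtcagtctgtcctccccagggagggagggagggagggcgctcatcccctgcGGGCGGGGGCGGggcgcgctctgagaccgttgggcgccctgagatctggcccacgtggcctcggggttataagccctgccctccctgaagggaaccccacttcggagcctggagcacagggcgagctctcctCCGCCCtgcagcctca
MIR181A1HG: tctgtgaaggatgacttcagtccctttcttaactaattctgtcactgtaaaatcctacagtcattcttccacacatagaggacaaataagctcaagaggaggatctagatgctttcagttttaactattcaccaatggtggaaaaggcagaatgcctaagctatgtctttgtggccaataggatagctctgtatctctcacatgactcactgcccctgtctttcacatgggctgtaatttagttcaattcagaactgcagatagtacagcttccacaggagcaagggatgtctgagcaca

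The MIR17HG start, open in all 6 libraries, held 42 CpG dinucleotides and 6 GC boxes. The MIR155HG start, open in NG 2, NG 3 and SMG 2, held 20 CpG, no GC box and a TATAAA. The MIR142HG start, with 17 CpG and 3 GC boxes, was open in none, and the MIR181A1HG start, with 0 CpG and no GC box, was open in all 6. These 4 do not order by CpG. Over all host starts, GGGCGG on either strand was in 74.0% of the 600 open in all 6 libraries and 40.1% of the 563 open in none, beside 44.9% of 35097 listed starts of all genes. The median CpG count in the same 300 bases was 27, 9 and 14 in that order. The 193 host starts open in 1 to 5 libraries had a median of 30 CpG, above that of the starts open in all 6, and GGGCGG in 68.4%. A match is a description of letters, not of a bound site.

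Hairpins were grouped by the cell types in which their microRNAs are best known. Of 29 hairpins tied to lymphocyte development and activation, 2 were open in all 6 libraries, 10 in some and 17 in none. These shares were 6.90, 34.5 and 58.6%, beside 9.54, 6.97 and 83.5% of all hairpins. The list was thus below all hairpins in the share open in all 6 and above them in the share open in some. Neither difference was tested. Several of the 10 open in some libraries shared a peak with a neighbour, so they are not separate cases. MIR142 (chr17:58331232-58331318) had percentiles of 91.3, 93.0 and 90.5 in NG 1 to NG 3 and 95.2, 94.0 and 94.8 in SMG 1 to SMG 3. All SMG values were above all NG values, and the peak lay 765 bp away on the downstream side of the hairpin, not at the listed MIR142HG start. MIR155 (chr21:25573980-25574044) lies inside MIR155HG (the table gives no exons) and was itself covered in all 6 libraries. Its percentiles were 58.5, 65.3 and 61.5 in NG 1 to NG 3 and 41.8, 41.2 and 26.8 in SMG 1 to SMG 3, all NG values above all SMG values.

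Separations of this kind were about as frequent as over all regions. Among the 171 hairpins open in all 6 libraries, percentiles were higher in each NG than in each SMG library for 11 (6.43%) and the reverse for 5 (2.92%). Among the 24103 merged regions held by all 6, the shares were 5.06 and 5.34%. Percentiles come from lists of different length and show no change in accessibility by themselves.

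Other lymphocyte hairpins were open in part of the libraries. MIR26A1, of a family that restrains growth, was open in 5 libraries, at 34.4 and 41.9 in NG 2 and NG 3 and 36.9, 71.4 and 61.3 in SMG 1 to SMG 3. MIR150, a microRNA of mature lymphocytes, was open in NG 1, NG 2, SMG 1 and SMG 2. MIR181A2 and MIR181B2 shared a peak in NG 2 and SMG 1, and MIR23A, MIR27A and MIR24-2 shared one in NG 2 and SMG 2. MIR29A and MIR29B1 shared a peak in NG 2, and MIR182 had one in NG 3. Neither MIR21, abundant in activated T cells, nor MIR146A, a brake on inflammatory signalling, nor MIR181A1 had a peak in any library. The host starts of MIR21 (VMP1) and MIR181A1 (MIR181A1HG) were open in all 6, that of MIR146A (MIR3142HG) in 3.

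Of 18 hairpins of broadly expressed microRNAs, 4 (22.2%) were open in all 6 libraries and 14 (77.8%) in none, beside 9.54 and 83.5% of all hairpins. MIR191 (chr3:49020618-49020709) stood at a mean percentile of 89.8, MIR320A (chr8:22244966-22245037) at 89.7, MIR92B (chr1:155195177-155195272) at 88.3 and MIR423 (chr17:30117079-30117172) at 48.7. MIR423 had 64.8, 48.0 and 65.7 in NG 1 to NG 3 and 33.1, 24.0 and 56.6 in SMG 1 to SMG 3, and the groups overlapped. A host start was listed for 13 of the 18, and each of the 13 was open in all 6, beside 53.0% over all hairpins with a listed host start.

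The let-7 family, which favours the differentiated state, had 1 open hairpin of 10 (10%), near the 9.54% of all hairpins open in all 6 libraries. MIRLET7I (chr12:62603686-62603769) lay 984 bp downstream of the MIRLET7IHG start, under a peak in all 6 libraries, at 86.4, 83.5 and 84.8 in NG 1 to NG 3 and 91.7, 81.7 and 82.2 in SMG 1 to SMG 3. The groups overlapped. The host start of MIRLET7A1, MIRLET7F1 and MIRLET7D (MIRLET7A1HG) and that of MIRLET7G (WDR82) were open in all 6 libraries. Those of the remaining 5 were open in none. The share of let-7 host starts open in all 6 was thus 50%, near the 53.0% over all hairpins with a listed host start. Of 9 hairpins of growth-restraining microRNAs, MIR34C was open in 2 libraries and 8 (88.9%) in none, beside 83.5% of all hairpins. MIR15A and MIR16-1, in the lncRNA gene DLEU2, and MIR15B and MIR16-2, in SMC4, had closed windows and host starts open in all 6. These were 50% of the 8 on that list with a listed host start, also near 53.0%.

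**Figure D4:**
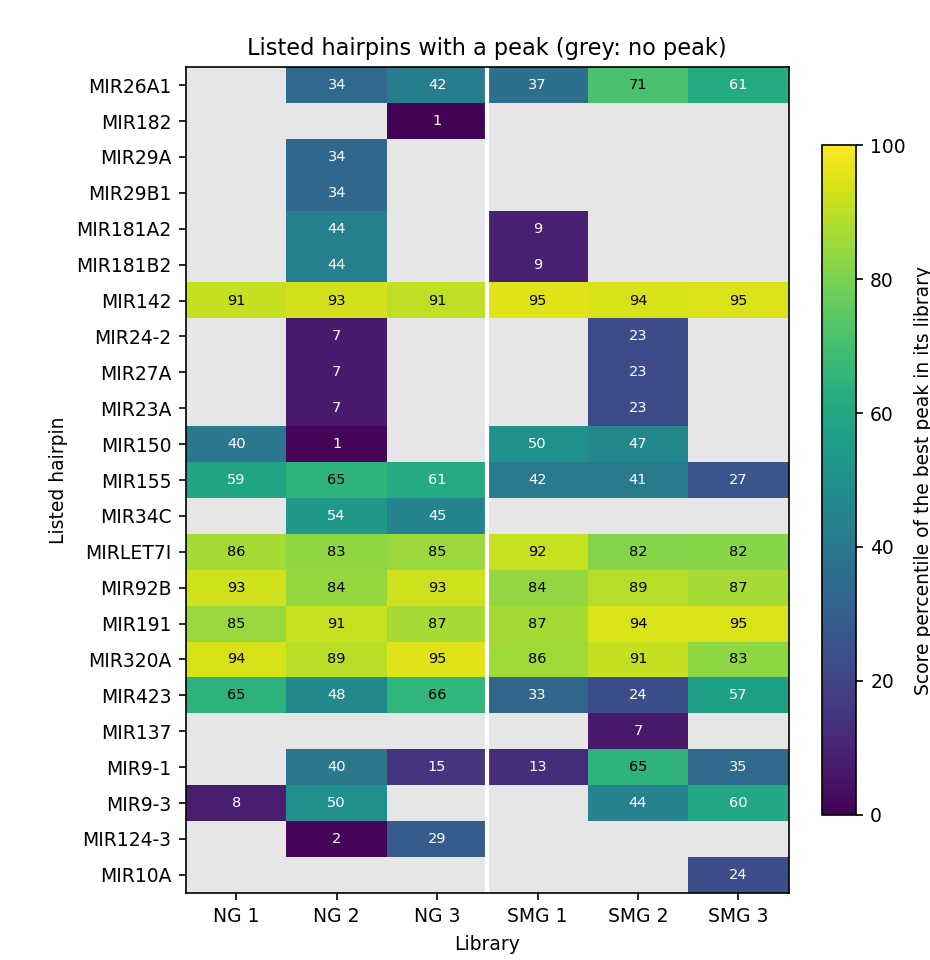
Score percentile of the best peak (colour and printed number, 0 to 100) for the 23 listed hairpins with a peak in at least 1 library (rows) in each of the 6 libraries (columns); grey is no peak. MIR142, MIRLET7I, MIR92B, MIR191 and MIR320A are above 80 in all 6 libraries, while most other rows are broken by grey.

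Most listed hairpins of other tissues had no peak in any library, though some neuronal hairpins did. Of all 1793 hairpins, 83.5% had no peak in any library and 16.5% had one in at least 1. None of the hairpins on the muscle (11), epithelium (7), liver, islet and endothelium (6) and pluripotent cell (8) lists had a peak in any library. The imprinted chr14 cluster (42 hairpins) and the primate chr19 cluster (44) also had none, and their hairpins lay a median of 75458 and 83114 bp from a peak. Of 13 neuronal hairpins, MIR9-1 was open in 5 libraries, MIR9-3 in 4, MIR124-3 in 2 and MIR137 in 1. Thus 30.8% of that list had a peak in at least 1 library, above the 16.5% of all hairpins. This difference was not tested. MIR9-1 (chr1:156420341-156420429) had percentiles of 39.8 and 14.9 in NG 2 and NG 3 and 13.2, 65.0 and 34.6 in SMG 1 to SMG 3. Of 6 hairpins in the HOX clusters, MIR10A had a peak in SMG 3. Host starts were open in all 6 libraries for 3 of 9 neuronal hairpins (MIR9-2, MIR128-1 and MIR218-1) and 1 of 2 HOX hairpins with a listed start. They were so for 0 of 23 on the muscle, epithelium, liver and pluripotent lists, 0 of 19 in the chr14 cluster and 0 of 13 in the chr19 cluster. Many of these hairpins shared a host, so the counts hold few separate starts. The 5 pluripotent hairpins had MIR302CHG, the 13 of chr19 LOC107985342, and the 19 of chr14 LOC124903407 or MIR381HG. Over all hairpins with a listed host start the share was 53.0%, and over the 144 not inside protein-coding genes 27.1%. Over lncRNA genes with a listed start it was 18.3%.

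**Figure D5:**
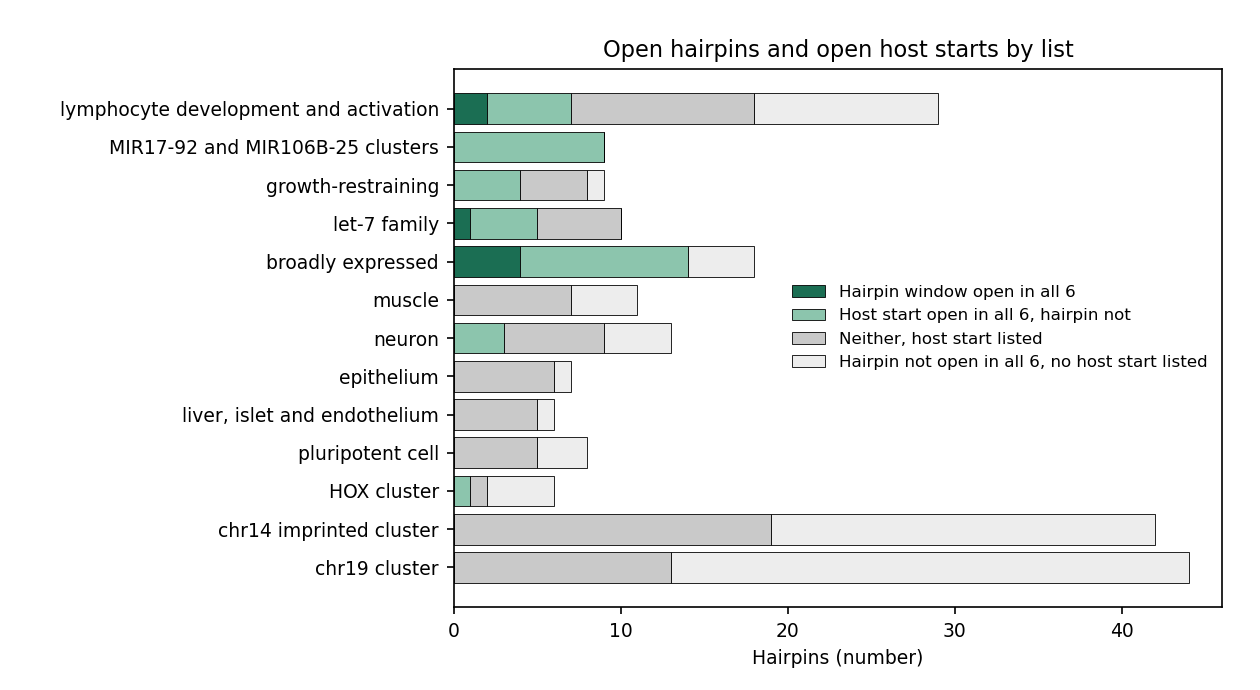
Number of hairpins (x axis) on each list (y axis) by class: hairpin window open in all 6 libraries, host start open in all 6 but not the hairpin, neither open in all 6 with a host start listed, and hairpin not open in all 6 with no host start listed. All 9 hairpins of the MIR17-92 and MIR106B-25 clusters have an open host start and a closed window, and the muscle, epithelium and chr14 and chr19 bars hold no green.

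A single hairpin was open throughout 1 group and never in the other. MIR4751 (chr19:49933064-49933137), inside ATF5, which encodes a stress-response transcription factor, was open in SMG 1, SMG 2 and SMG 3 at percentiles of 27.8, 54.4 and 6.78 and in no NG library. Its best peaks spanned chr19:49932724-49933095, and the ATF5 start, 2855 bp upstream, was open in all 6 libraries. No hairpin was open in all NG and no SMG libraries. These 1 and 0 of 1793 hairpins are 0.0558 and 0%, beside 0.0252 and 0.0174% of all bins. Of the 296 hairpins open in at least 1 library they are 0.338 and 0%, beside 0.446 and 0.308% of bins with a peak. Leaving out NG 3 gave 4 SMG-only hairpins, and leaving out SMG 2 gave 3 NG-only hairpins. With a library left out the rule asks for fewer libraries, so these counts could only stay or rise.

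A looser rule was also balanced. The number of open libraries was higher by 2 or more under simulated microgravity for 7 hairpins and at normal gravity for 7, each 0.39% of all hairpins and 2.36% of the 296, beside 4.32 and 3.32% of bins with a peak. Led by percentile, the former included MIR148A (chr7:25949919-25949986), a microRNA of lymphocytes and liver. It was open in NG 3 at 60.7 and in SMG 1, SMG 2 and SMG 3 at 77.2, 68.8 and 27.3. MIR614 in GPRC5A was also open in 1 NG and 3 SMG libraries. On the other side, MIR34C, of the p53-responsive miR-34 family, was open in NG 2 and NG 3 at 53.6 and 45.1 and in no SMG library, and MIR567 in C3orf52 likewise in 2 NG libraries. MIR5703 and MIR3188 were open in 3 NG and 1 SMG library. The mean percentiles of the 6 lay between 34.0 and 58.5.

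Host starts gave the same picture. Of the 955 hairpins, 557, 592 and 588 had an open host start in NG 1 to NG 3 and 589, 596 and 553 in SMG 1 to SMG 3, and the groups overlapped. The means were 579 ± 19.2 and 579 ± 23.1 (SD, n = 3 each; exact permutation test, two-sided, p = 1). The host start of MIR4773-2 (LOC101929319) was open in all SMG and no NG libraries, and none was in the reverse case. These are 0.105 and 0% of the 955, beside 0.0762 and 0.0648% of 26245 protein-coding and lncRNA genes with a listed start.

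Most genes that make and use microRNAs had an open gene end in both groups. Of 22, 16 had a peak within 1 kb of a gene end in all 6 libraries (47.1% of all protein-coding genes did), among them DROSHA (mean percentile 94.5), DGCR8 (81.9), XPO5 (81.9), DICER1 (43.9) and TNRC6B (96.7), a silencing scaffold bound by Argonaute. AGO1 and AGO3 lie next to each other and shared a peak at 51.8. None was found for AGO2, AGO4, TNRC6A, LIN28A or LIN28B, the last a pair of let-7 repressors of embryonic cells, and ZC3H12A had one in 1 NG library. A gene start inside the ends of the gene would be missed by this window.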

How the data were processed

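Open chromatin was measured by ATAC-seq in 6 libraries, grouped by their labels. Per the submitters' processing notes, FastQC, BWA, Bowtie, SAMtools, MACS2 and build hg38 were used; for versions, settings, duplicate handling and any transposase shift the sources used here give nothing. Each library has its own peak list, which the authors deposited without a header in the narrowPeak layout of MACS2. The deposited score is a whole number, 10 times the −log10 q-value. Of the other values the authors deposited, the −log10 q-value ranked the peaks and the last column gave the summit position, while the fold enrichment (a linear ratio) and the −log10 p-value were not used. With no read counts in the lists, depth is unknown, and the absence of a peak can reflect depth as well as closed chromatin.

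Each list was ranked by −log10 q-value. Hairpins, tRNA and snoRNA genes and their windows came from RefSeq (GRCh38.p14). Any overlap of at least 1 bp counted. Background bins were 2080 bp long, the length of a typical hairpin window. Host starts came from a RefSeq promoter table that is not complete and matched 955 hairpins. The overlap code was tested on simulated data. Group means were compared by exact permutation tests and within-library differences by exact sign-flip permutation tests (Python 3.11.15, numpy 2.4.6, pandas 2.3.3, scipy 1.17.1), with Benjamini-Hochberg adjustment over 9 comparisons. Named hairpins are the 12 strongest loci open in all 6 libraries, those open throughout 1 group and never in the other, the 6 strongest that differ by 2 or more libraries, and members of lists by cell type. The hairpins and lists were chosen with earlier results of these data known. Alternatives changed the window, the overlap, the q-value, the peak number and the unit counted, or left out a library.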

Additional observations from a re-analysis of the deposited data

How the results depend on the processing

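The difference in open hairpins, simulated microgravity minus normal gravity (−1.33), took the other sign with windows of 500 bp (1) and 2 kb (2) and with peaks of −log10 q of at least 5 (0.333), and was −5.33 with the summit in the window, −0.333 with equal numbers of best peaks and −1.33 over loci. Leaving out 1 library gave −11 to 6.5 (exact permutation p of 0.4 to 1), with 6.5 without NG 2, 6.17 without SMG 3 and 0.5 without NG 3. With a replicate block the difference was −1.33 (exact permutation p = 0.75; the smallest p this allows is 0.25). Deviations of same-numbered libraries correlated at −0.000515, 0.0195 and −0.0106 over the merged regions, and of the NG libraries only NG 2 correlated best with its own number. Values this small cannot settle whether same-numbered libraries shared a batch or culture, and no label states it. The difference between hairpins inside protein-coding genes and others kept its direction and its side of the threshold under the 6 changes of window, overlap, q-value, peak number and unit (from −4.41 over loci to −1.98 points with a 2 kb window). Leaving out 1 library gave −3.50 to −2.96 points, each with an exact permutation p of 0.0625, the smallest that 5 libraries allow. Hairpins open in all SMG and no NG libraries numbered 2 with a 2 kb window and 0 with −log10 q of at least 5, and 1 to 4 when leaving out 1 library (4 without NG 3, 2 without SMG 1, SMG 2 or SMG 3). The reverse count was 2 with a 2 kb window and 0 to 3 when leaving out 1 library (3 without SMG 2, 2 without NG 1, 1 without NG 2 or SMG 1). Hairpins open in all 6 libraries numbered 119 (500 bp) to 242 (2 kb). When leaving out 1 library, 171 to 179 were open in all that remained. Leaving out a library loosens the rules for hairpins open in 1 group only or in all libraries. Those counts could then only stay or rise. Causes of these shifts were not tested. Depth is unknown, and NG 1 had the fewest peaks.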

Other observations

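Hairpins with a symbol number under 1000, broadly those named earliest, were open less often than those numbered 1000 or more. The shares were 8.57% of 558 and 14.3% of 1235, a difference of −5.75 points, lower in 6 of 6 libraries (exact sign-flip permutation test, p = 0.03125, adjusted 0.0352). Many hairpins of the closed chr14 (42) and chr19 (44) clusters are numbered under 1000. Neither this clustering nor the distance to gene ends was taken into account. For 129 mature microRNAs made from several hairpins, all hairpins were open in no library for 107 and in all 6 libraries for 4. Another 5 had hairpins of both kinds. Over all hairpins 83.5% were open in no library. The 129 are not separate cases, since the 2 strands of a hairpin count apart. Of the 4, miR-3180-3p and miR-3180-5p share hairpins, and the hairpins of miR-3199 and those of miR-3913-3p have overlapping windows. The members named here were chosen after their values were seen. MIR365A (chr16:14309285-14309371) was covered by a peak in all 6 libraries, at percentiles of 71.0, 63.6 and 71.3 in NG 1 to NG 3 and 72.3, 65.4 and 89.3 in SMG 1 to SMG 3. MIR365B (chr17:31575411-31575521), which gives the same miR-365a-3p, lay 24976 bp from the nearest peak. MIR1289-1 in GDF5 was open in all 6 libraries at a mean percentile of 90.3, and MIR1289-2 in FSTL4 in none.

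Among the 20 hairpins open in all 6 libraries that lay over 10 kb from a gene end, also chosen after their values were seen, MIR4526 in LDLRAD4 had a mean percentile of 96.3 and MIR4706 86.5. MIR3648-2 and MIR10396A on chr21 shared a peak at 90.8 and MIR10396B had one at 88.3. These chr21 hairpins lie in ribosomal DNA repeats with near-identical copies, so the place of their peaks is uncertain. MIR296 and MIR298 on chr20 shared a peak at 84.0. Outside these 20, MIR301B and its neighbour MIR130B on chr22, which share the seed AGUGCAA, were open in 6 and 5 libraries. Their windows overlap, so they are not separate cases.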
